A study of Mus musculus with 16 samples.

Results

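The nuclear-encoded subunits of the mitochondrial respiratory chain and ATP synthase were followed in RNA of the longitudinal muscle and myenteric plexus (LMMP) of the mouse colon. Members were the protein-coding genes outside the mitochondrial genome with 10 or more counts in at least 4 of the 16 libraries whose symbols name a subunit by one of these patterns: Nduf followed by a, b, c, s or v and a number, Sdha to Sdhd, Cyc1, Cox4 to Cox8 with at most a letter, an isoform number and a closing l or b, and any symbol that begins with Uqcr or Atp5. Assembly factors such as the Ndufaf genes, and Cox4i1, Cox4i2, Ndufab1 and Ndufa4l2, do not match. Of 85 genes that matched, among 56748 genes counted, 80 were kept: 37 of complex I, 4 of complex II, 9 of complex III, 13 of complex IV and 17 of complex V. Complexes were assigned by symbol alone. Ndufa4, a subunit of complex IV with 1.67% of the summed member CPM, is thus counted in complex I throughout. The other 5 were Cox6a2, a muscle isoform described last, and Cox7b2, Cox8c, Ndufb11b and an additional Atp5o entry, each with 0 counts in every library. The smallest count of any member in any library was 11.

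Groups were WT (Ednrb+/+) and HSCR (Ednrb-/-) littermates aged 2 to 4 weeks, with proximal and distal colon of each, at 4 libraries per group. HSCR mice carried the null allele Ednrb tm1Ywa in all cells, on a hybrid C57BL6/J-129Sv background, and no agent was given. Mice of this genotype are a model of Hirschsprung disease, in which the distal colon lacks enteric neurons, and both sexes were used. The 8 distal libraries are called distal in their titles but proximal in their tissue entry, and the titles were followed. Whether proximal and distal libraries came from the same mouse is not stated, so p-values measure the spread between these libraries.

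The respiratory chain passes electrons from NADH (complex I) and succinate (complex II) through complex III to oxygen at complex IV, and complexes I, III and IV pump protons whose return drives ATP synthase, complex V. Each complex except complex II joins subunits encoded in the nucleus with a few made inside the mitochondrion, so 2 genomes must supply 1 machine. Smooth muscle relies on it for much of the ATP that sustains tone and peristalsis.

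Library facts that touch the results are as follows. Total counts ran from 21384372 to 45831881 per library, and the share taken by mitochondrial genes ran from 4.32% to 49.8%. The HSCR proximal 2 library stood apart. Its 8 smooth muscle markers summed to 6078 CPM (counts per 1000000 counts) against 35937 to 103546 in the other 15. Its 10 epithelial markers summed to 19606 CPM against 53.0 to 6387 in the other 15. Among those 15, epithelial markers were at 6387 CPM in HSCR distal 3, 4663 in WT proximal 1 and 4185 in HSCR proximal 3. They were at 53.0 and 67.1 CPM in WT proximal 3 and 4. Values without HSCR proximal 2 thus still compare libraries with unequal epithelial RNA. Skeletal muscle markers were high in HSCR proximal 1, HSCR distal 2 and WT distal 1. Ednrb, the disrupted gene, was at 83.8, 45.7, 73.3 and 59.2 CPM in WT proximal, 8.48, 14.7, 46.0 and 36.8 CPM in HSCR proximal, 15.2, 20.9, 34.1 and 47.7 CPM in WT distal, and 112, 7.22, 6.62 and 10.5 CPM in HSCR distal. The library labelled HSCR distal 1 was thus above every WT library for the gene that its label says is lost. Enteric neuron markers (8 genes) went the same way: they summed to 781 CPM in the library labelled HSCR distal 1 and to 10.7 to 90.8 CPM in the other 3 HSCR distal libraries, but to 48.3 CPM in the library labelled HSCR proximal 1. The members' medians are also given without these libraries. Neuron markers were also low in HSCR proximal 2, at 104 CPM, and in WT distal 1, at 80.1 CPM. CPM here are scaled to the non-mitochondrial counts of each library, so that mitochondrial transcripts do not dilute the members. In such bulk RNA, fewer cells of a type and less RNA per cell cannot be told apart.

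Promoters of 3 of the most abundant members per length, from complexes IV, V and III, are shown because most members moved together across libraries. They come from RefSeq on build GRCm38.p6, cover 250 bases before to 50 after the start, and run 5′ to 3′ on the gene's strand, with capitals for the ETS-type letters CCGGAAG or, as here, their reverse complement CTTCCGG. The Cox8a window is chr19:7217567-7217866 on the minus strand, the Atp5b window chr10:128083057-128083356 on the plus strand and the Uqcrh window chr4:116075021-116075320 on the minus strand.
Cox8a: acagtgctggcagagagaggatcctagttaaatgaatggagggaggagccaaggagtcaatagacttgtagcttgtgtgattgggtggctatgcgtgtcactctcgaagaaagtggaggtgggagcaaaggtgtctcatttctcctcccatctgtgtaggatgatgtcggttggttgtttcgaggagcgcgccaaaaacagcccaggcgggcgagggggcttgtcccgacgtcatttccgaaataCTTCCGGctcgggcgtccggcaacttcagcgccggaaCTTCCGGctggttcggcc
Atp5b: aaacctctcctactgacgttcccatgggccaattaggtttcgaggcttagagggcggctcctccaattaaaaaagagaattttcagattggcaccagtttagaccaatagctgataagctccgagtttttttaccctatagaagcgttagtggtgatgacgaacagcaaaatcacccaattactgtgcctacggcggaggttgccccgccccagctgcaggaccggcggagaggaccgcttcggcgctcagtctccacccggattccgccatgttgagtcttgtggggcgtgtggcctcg
Uqcrh: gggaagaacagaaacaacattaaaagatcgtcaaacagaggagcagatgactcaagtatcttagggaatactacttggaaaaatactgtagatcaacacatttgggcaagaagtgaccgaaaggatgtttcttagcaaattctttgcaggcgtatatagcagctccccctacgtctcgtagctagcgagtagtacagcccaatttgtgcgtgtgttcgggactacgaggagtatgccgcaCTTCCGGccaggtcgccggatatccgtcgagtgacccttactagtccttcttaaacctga

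Cox8a held the ETS letters at 2 places and Uqcrh at 1, while the Atp5b window held none of the 4 motifs searched. RefSeq promoters were matched for 68 of the 80 members, at 73 windows, and each motif was read on both strands. CCGGAAG was in 23.3% of the member windows against 8.86% of all 32851 windows. The palindrome of NRF-1, a factor known to drive many respiratory genes, was in 6.85% against 0.971%. The YY1 letters AAGATGGCG were in 9.59% against 1.4%, and TATAAA was in 11% against 13.6%. The letters AAG both end the ETS motif and begin the YY1 motif, so that 1 stretch can hold both, and a match is a description only.

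Across members, ATP synthase held the largest share of the RNA. Its 17 genes made up 38.9% ± 2.44 (SD, n = 16) of the summed member CPM, complex I 26.8% ± 1.72, complex IV 16.8% ± 1.33, complex III 11.8% ± 0.720 and complex II 5.71% ± 0.471. These shares were narrow across libraries, with complex V between 33.5% in WT proximal 2 and 42.7% in HSCR proximal 1. The 3 members with the highest mean CPM made up 19.96% of the sum.

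Per kb of gene length, complex IV held the highest levels of all members. Cox8a, a small subunit found in most tissues, had a mean of 668 CPM per kb, and Cox6a1, the non-muscle form of its subunit, 646 CPM per kb. In complex V the leading genes were Atp5a1 and Atp5b, the alpha and beta subunits that form the catalytic head, at 347 and 319 CPM per kb. Complex III was led by Uqcrh, the hinge protein, at 269 CPM per kb and Uqcr11 at 263 CPM per kb. In complex I the small accessory subunits Ndufa2 and Ndufa1 were at 273 and 226 CPM per kb, while Ndufs1, the largest core subunit, was at 9.71 CPM per kb. Before division by length, Ndufa2 had a mean of 156 CPM and Ndufs1 of 78.5 CPM, with gene lengths of 572 and 8086 bases. Gene length is the value deposited for each gene and may differ from that of its mRNA, which limits these ranks. In complex II the membrane anchors Sdhd and Sdhc were at 143 and 76.3 CPM per kb, beside 66.7 for the iron-sulphur subunit Sdhb and 60.4 for the flavoprotein Sdha.

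Summed over the 80 members, CPM were 14870, 12285, 13699 and 16431 in WT proximal 1 to 4 and 14367, 29353, 13160 and 14087 in HSCR proximal 1 to 4. In the distal colon they were 14236, 12473, 12731 and 9463 in WT and 13777, 18921, 13303 and 10452 in HSCR. The means were 14321 ± 1759 (SD, n = 4) in WT proximal, 17742 ± 7758 in HSCR proximal, 12226 ± 1999 in WT distal and 14113 ± 3526 in HSCR distal. The groups overlapped in every comparison, and HSCR proximal 2 alone was 2.14 times the median of the other 15 libraries. That library had the highest CPM of all 16 for 71 of the 80 members, and 74 members were over 1.5 times their median in the others. The low end was WT distal 4, which held the lowest CPM for 48 members.

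**Figure D1:**
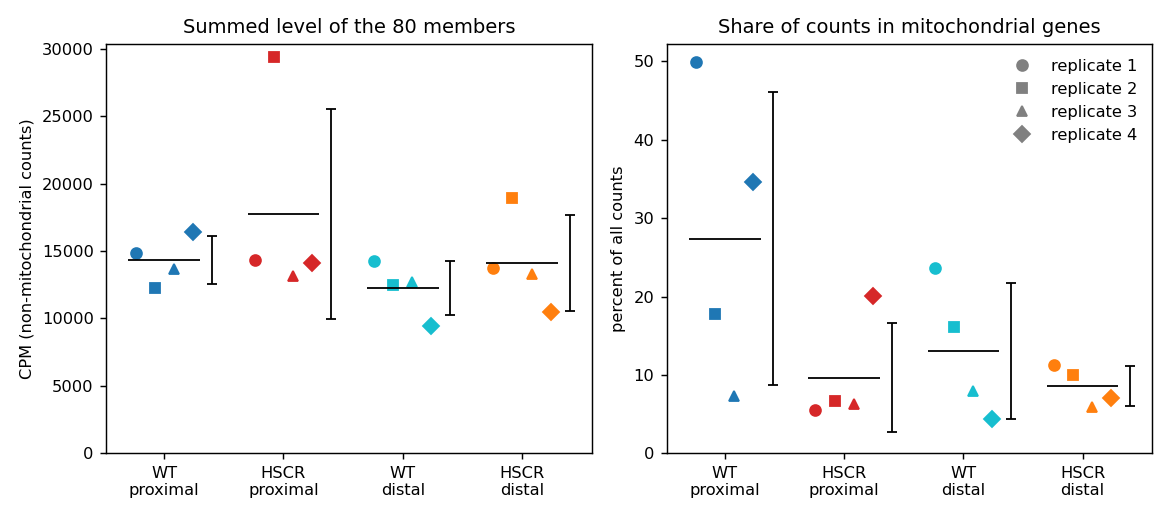
Left, summed CPM of the 80 members per library; right, share of all counts in mitochondrial genes, in percent, for the 4 groups (points, libraries, shaped by replicate number; lines, means; bars, SD). HSCR proximal 2 lies at 29353 CPM while the other 15 libraries lie between 9463 and 18921, and the mitochondrial share spans 4.32% to 49.8%.

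The summed level and the mitochondrial share varied on different scales. The share was 49.8, 17.8, 7.31 and 34.6% in WT proximal 1 to 4, 5.56, 6.68, 6.34 and 20.1% in HSCR proximal, 23.7, 16.1, 7.93 and 4.32% in WT distal and 11.3, 10.03, 5.93 and 7.11% in HSCR distal. Its highest value was 11.5 times its lowest, while the members' sum differed by 2.00 times among the 15 libraries other than HSCR proximal 2. Over 16 libraries Pearson's r between the log2 sum and the share was 0.115 and Spearman's rho 0.321, given as a description of libraries that may share mice. Without the 2 libraries farthest from the median share, WT proximal 1 and WT proximal 4, r was −0.00939, and without HSCR proximal 2 it was 0.396. Within the 8 libraries of replicates 1 and 2, whose library names form 1 series, r was −0.292, and within the 8 of replicates 3 and 4 it was 0.711. The names in replicates 3 and 4 carry a pair of other prefixes, one on both WT proximal libraries and the other on both WT distal libraries, so that prefix and segment cannot be told apart there. Mitochondrial mRNA reads per member read ranged from 2.27 in HSCR proximal 2 to 63.8 in WT proximal 1.

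The groups overlapped in the share itself. Its mean was 9.67% ± 6.97 (SD, n = 4) in HSCR proximal and 27.4% ± 18.7 in WT proximal, a difference of −17.7 points (p = 0.171, exact two-sided permutation test). In the distal colon the difference was −4.43 points (p = 0.429, the same exact test). Distal minus proximal was −14.4 points in WT (exact p = 0.229) and −1.08 points in HSCR (exact p = 0.943), and over these 4 tests the smallest Benjamini-Hochberg adjusted p was 0.457. With 4 libraries against 4 the smallest p possible is 0.0286.

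The members' sum moved closely with the level of short genes that are not members. Of the 80 members, 19 were under 1000 bases. The median gene length was 1423 bases in the 68 members outside the list of core subunits used below. It was 2474 bases in the 12 core subunits, 0 of which were under 1000 bases. In each library the mean log2 level of 151 other genes under 1000 bases was set against that of 8612 genes over 3000 bases, a measure chosen after the data were seen. This difference was 1.02 in HSCR proximal 2, the library with the highest member sum, and −1.0 in WT distal 4, the library with the lowest. Over 16 libraries its r with the log2 member sum was 0.868, and it was 0.850 without HSCR proximal 2, 0.773 without both end libraries, 0.888 in replicates 1 and 2 and 0.932 in replicates 3 and 4. Leaving out 24 ribosomal protein genes from the short genes gave an r of 0.859. Among the members themselves, gene length did not go with the rise in HSCR proximal 2. There r between log2 length and log2 fold over the median of the other libraries was 0.0588. This was not taken for any other library, so it does not bear on length in those. Fits with an offset for gene length in each library are given with each comparison.

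**Figure D2:**
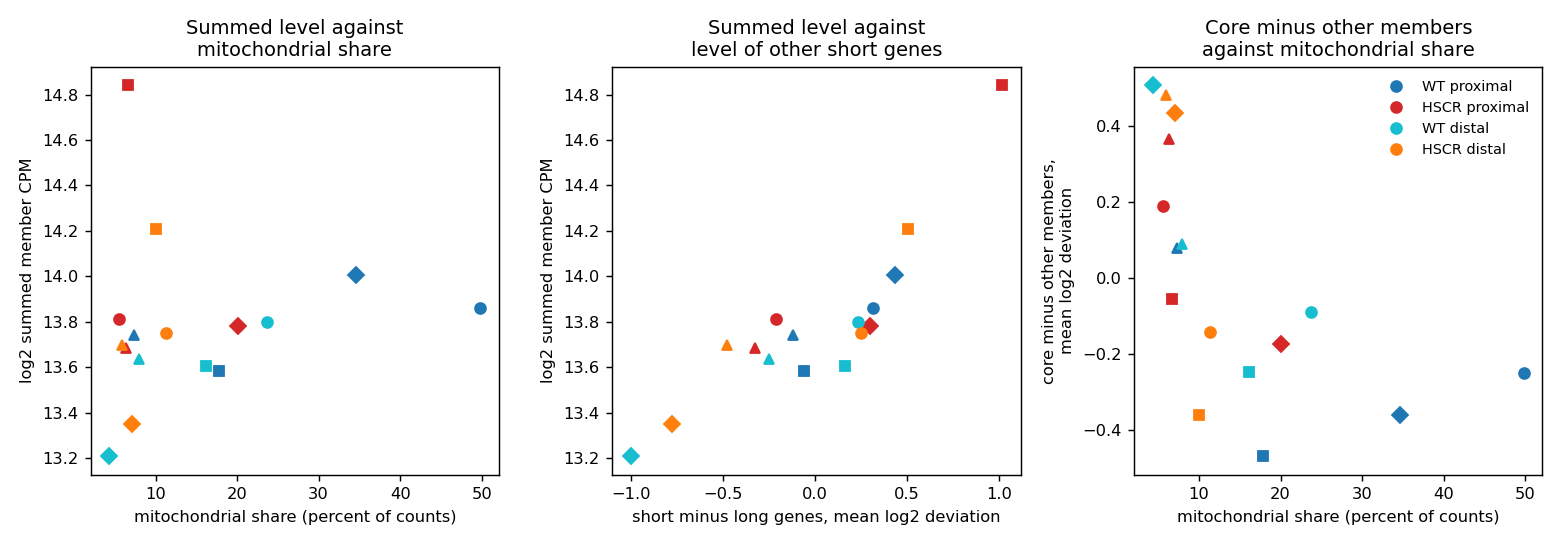
Each point is 1 of 16 libraries, coloured by group and shaped by replicate as in the plot of summed CPM. Left, log2 summed member CPM against mitochondrial share, in percent (r 0.115). Middle, the same sum against the mean log2 deviation of short minus long genes (r 0.868). Right, mean log2 deviation of core minus other members against mitochondrial share (r −0.595).

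Core and other members took unequal parts of the sum. The 12 subunits called core here are a chosen list, among them Ndufv1, Ndufs1, Sdha, Cyc1, Cox5a and Atp5b. It includes some that bind NADH, flavin, iron-sulphur clusters or haem and those that make ATP. The list is not complete, and Ndufv2, Ndufs3, Ndufs7, Ndufs8 and Uqcrc2 were counted with the other members. It also holds Cox5a and Cox5b, which are accessory subunits of complex IV. Core against other is thus this list against the remaining members, not all core against all accessory subunits. The mean log2 deviation of core minus other members was −0.25, −0.47, 0.08 and −0.36 in WT proximal 1 to 4 and 0.19, −0.05, 0.36 and −0.17 in HSCR proximal. It was −0.09, −0.25, 0.09 and 0.51 in WT distal and −0.14, −0.36, 0.48 and 0.43 in HSCR distal. All 8 libraries with a mitochondrial share of 10.03% or more, and HSCR proximal 2, were below 0, and the other 7 were above 0. Against the share, r was −0.595 and rho −0.818 over 16 libraries. The short-gene measure moved with it too (r −0.764 against core minus other). Against only the 35 other members that are at least as long as the shortest core gene, r with the share was −0.569.

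Members were also unequal in how well they followed the rest. For each gene, log2 CPM was correlated over the 16 libraries with the log2 sum of the members other than itself. The r was above 0.8 for 44 of 80 members, with a median of 0.823 against −0.04 for 18569 genes. Without HSCR proximal 2 it was above 0.8 for 33 members, with a median of 0.762 against −0.01 for all genes. Over all 16 libraries the closest pattern was that of Ndufb4, a membrane arm subunit of complex I, at 0.978. Fuom, which is no member and encodes fucose mutarotase, was next at 0.974, followed by Uqcr10 of complex III at 0.967. Without HSCR proximal 2 these 3 were at 0.959, 0.941 and 0.929. At the other end were Cox8b at 0.0356, Ndufs1 at 0.0580, Sdha at 0.299, Uqcrc2 at 0.315, Cox6b2 at 0.327, Atp5b at 0.3504 and Cox7a2l at 0.491. Ndufs1 and Sdha, both long core genes, were at −0.455 and −0.345 without HSCR proximal 2. Sdha had the smallest spread of all members, with a coefficient of variation of 21.7% and a highest library 2.13 times its lowest, against a median of 4.02 times for the members.

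**Figure D3:**
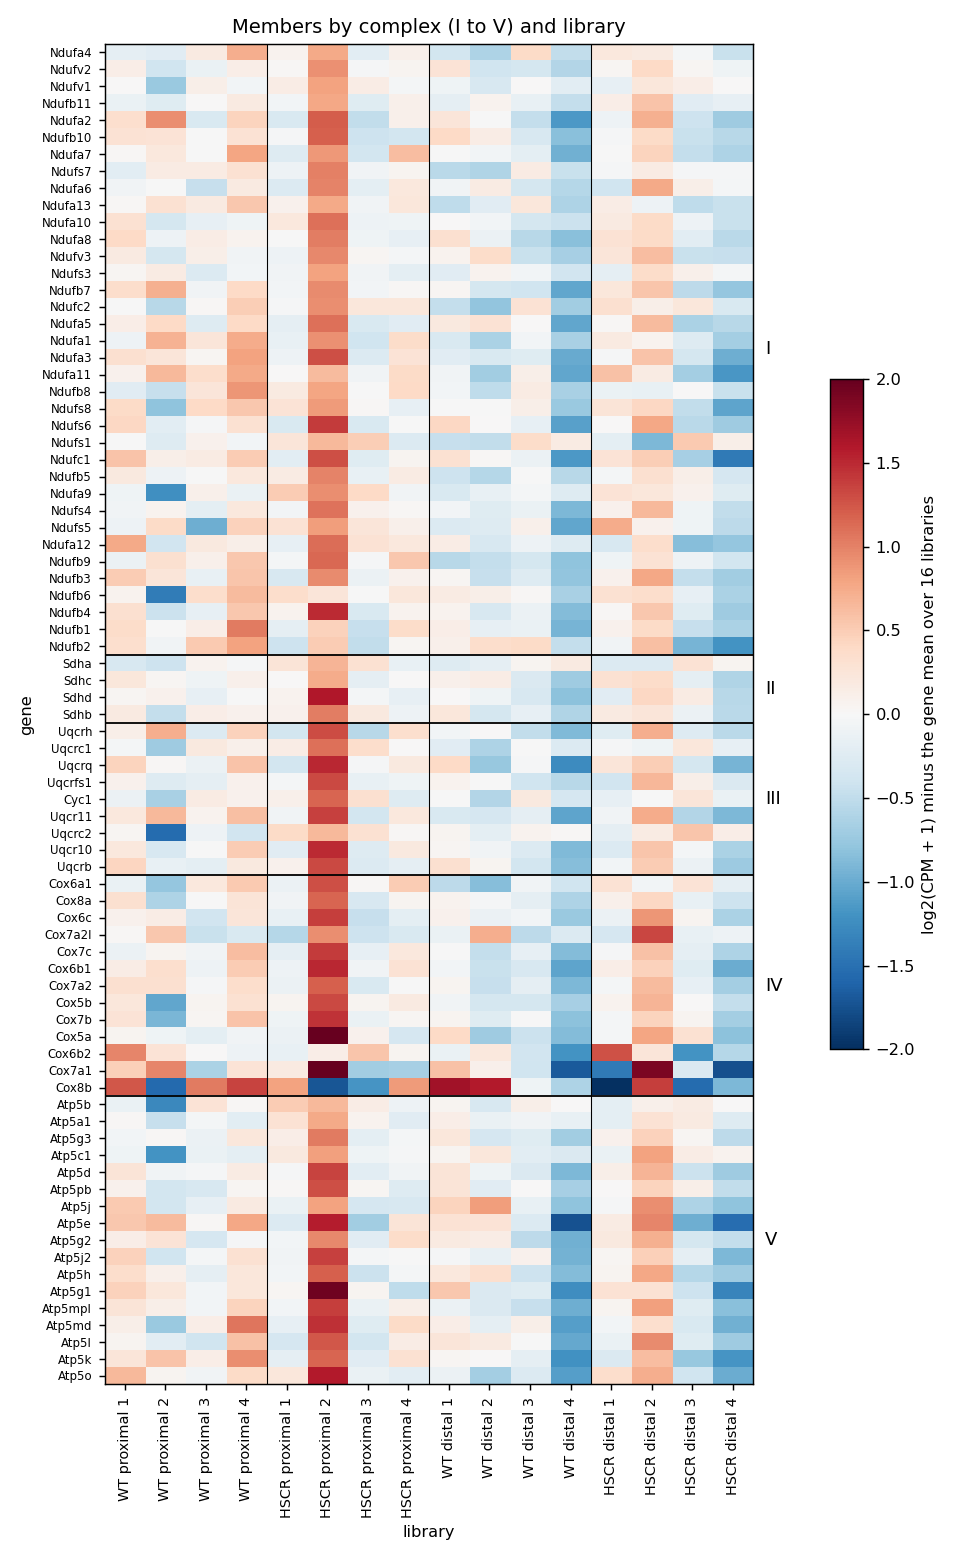
Colour gives log2(CPM + 1) minus the mean of each gene over the 16 libraries, for 79 members (rows, ordered by complex and then by level) in each library (columns). The HSCR proximal 2 column is red for nearly every gene but blue for Cox8b, and WT distal 4, which holds the lowest value of 48 members, is blue for most of them.

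In the proximal colon no member passed an adjusted p of 0.05 for HSCR versus WT (edgeR quasi-likelihood test with Benjamini-Hochberg adjustment over 16517 genes, 0% of which passed in either direction). At an unadjusted p under 0.05, 1 member was higher and 0 lower, against 2.76% and 3.84% of all genes. The log2 fold change was above 0 for 72 members and below 0 for 8, with a median of 0.37, while 55.4% of all genes were above 0 with a median of 0.07. HSCR proximal 2 carried this lean: without it 35 members were above 0 and 45 below, with a median of −0.05. Within replicates 1 and 2 the median was 0.86, and within replicates 3 and 4 it was −0.16. Without the library labelled HSCR proximal 1 it was 0.47, and with the length offset 0.23.

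HSCR libraries were all above WT libraries for 2 members and 1.11% of all genes, and the reverse held for 0 members and 3.55% of all genes. Atp5c1, the rotating gamma subunit of ATP synthase, was at 318, 147, 310 and 297 CPM in WT and 388, 601, 320 and 334 CPM in HSCR (log2 fold change 0.69 ± 0.37 SE, unadjusted p = 0.0926, adjusted p = 0.748 by edgeR), so that its groups did not overlap, by a narrow margin. Smaller p-values belonged to Ndufa9, a complex I accessory subunit, at 0.81 ± 0.36 SE (unadjusted p = 0.0524, adjusted p = 0.740 by edgeR), and Uqcrc2, a core protein of complex III, at 0.80 ± 0.37 SE. Uqcrc2 was at 159, 52.3, 144 and 119 CPM in WT and 202, 242, 191 and 157 CPM in HSCR, so that the groups overlapped by WT proximal 1. WT proximal 2 was the lowest of the 8 libraries for Uqcrc2, Ndufa9 and Atp5c1 alike.

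All 12 core subunits had log2 fold changes above 0 in the proximal colon, from 0.43 for Sdhb to 0.94 for Cox5a, with a median of 0.56 against 0.33 for the other 68 members. Cox5a was at 225 CPM in HSCR proximal 2 but at 49.5, 57.4 and 42.7 CPM in the other HSCR proximal libraries, beside 47.1 to 55.8 CPM in WT. Without HSCR proximal 2 all 12 were still above 0, with a median of 0.32 and Cox5a at 0.07, against −0.07 for the other 68. Atp5b, which carries the catalytic sites of ATP synthase, was at 1188, 533, 1576 and 1324 CPM in WT and 1864, 2048, 1440 and 1214 CPM in HSCR (0.57 ± 0.43 SE). Sdha was at 194, 184, 257 and 241 CPM in WT and 291, 391, 301 and 220 CPM in HSCR (0.53 ± 0.27 SE). In both genes the groups overlapped.

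In the distal colon, the segment without ganglia in this model, 0 members passed for HSCR versus WT (edgeR quasi-likelihood test, 0% of 17046 genes in either direction). At an unadjusted p under 0.05, 1 member was higher and 0 lower, against 0.833% and 1.9% of all genes. The log2 fold change was above 0 for 76 members and below 0 for 4, with a median of 0.26, beside 52% of genes and a median of 0.02 overall. It was 0.13 without HSCR distal 2, which had the highest sum of its group, and 0.21 without the library labelled HSCR distal 1. The median was 0.38 in replicates 1 and 2, 0.08 in replicates 3 and 4, and 0.20 with the length offset.

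Ndufb9, an accessory subunit of the complex I membrane arm (chr15:58805605-58811337 on mm39, as for the other gene positions), had the smallest p in the distal colon. It was at 41.1, 43.3, 47.2 and 34.2 CPM in WT and 57.2, 74.4, 56.4 and 47.0 CPM in HSCR, and HSCR distal 4 alone lay inside the WT range, just under WT distal 3. Its log2 fold change was 0.53 ± 0.22 (SE, unadjusted p = 0.0393, adjusted p = 1.00 by edgeR). Cox6a1, the non-muscle subunit of cytochrome c oxidase, was at 293, 235, 404 and 320 CPM in WT and 517, 410, 510 and 376 CPM in HSCR (0.57 ± 0.28 SE). HSCR distal 4 fell inside the WT range for that gene. No member had groups that did not overlap here, against 0.622% of all genes higher and 1.28% lower.

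With all WT libraries in the fit the members were mostly lower distally, a lean that replicates 3 and 4 held and replicates 1 and 2 did not. None passed an adjusted p of 0.05 in WT, distal versus proximal (edgeR quasi-likelihood test, 0.0122% of 16453 genes higher and 0.00608% lower). At an unadjusted p under 0.05, 13 members were lower and 0 higher, which is 16.2% of members against 2.18% of all genes lower and 3.03% higher. The log2 fold change was below 0 for 71 members and above 0 for 9, with a median of −0.36, while 48.5% of all genes were below 0 and 51.5% above. The median was −0.18 without WT distal 4 and −0.20 without WT proximal 4, the libraries with the lowest and highest sums in WT. In replicates 3 and 4, which include both, it was −0.66 with 77 members below 0, and in replicates 1 and 2 it was −0.01 with 40 below and 40 above 0. The WT libraries of replicates 3 and 4 have 1 name prefix proximally and another distally. Prefix and segment cannot be told apart there. With the length offset it was −0.23, with 12 members lower at an unadjusted p under 0.05. The share of all genes at that p was not taken in that fit. On CPM over all counts, mitochondrial ones included, the mean log2 sum was 0.06 higher distally rather than 0.24 lower.

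The 13 members were Ndufa1, Ndufa3, Ndufa11, Ndufb3, Ndufb7 and Ndufb9 of complex I, Uqcr11 and Uqcrh of complex III, Cox6b1 and Cox7a2 of complex IV, and Atp5k, Atp5mpl and Atp5o, a stator subunit, of complex V. Uqcr11, a small subunit of complex III (chr10:80238831-80242664), was at 178, 242, 161 and 234 CPM in WT proximal and 123, 121, 135 and 73.1 CPM in WT distal. Its log2 fold change was −0.87 ± 0.26 (SE, unadjusted p = 0.00787, adjusted p = 0.911 by edgeR), and no distal library reached the proximal range. For Ndufb9 the proximal levels were 55.9, 76.3, 65.4 and 89.0 CPM, above the distal levels given above (−0.81 ± 0.24 SE). Ndufa1, an X-linked complex I gene (chrX:36451241-36454816), was at 82.7, 144, 106 and 150 CPM proximally and 72.03, 56.8, 85.8 and 56.7 CPM distally (−0.84 ± 0.28 SE), with WT distal 3 inside the proximal range. In all, 7 members did not overlap between segments, all lower distally, against 1.67% of all genes lower and 2.66% higher. None of the 12 core subunits was among these 7 or the 13: their median was −0.11, with Atp5b at 0.12 and Sdha at 0.11, against −0.40 for the other 68.

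In HSCR mice, distal versus proximal, 0 members passed (edgeR quasi-likelihood test, 0% of 17087 genes either way), and 2 were lower and 0 higher at an unadjusted p under 0.05, against 0.773% and 0.696% of all genes. The log2 fold change was below 0 for 78 members, and above 0 for 2, with a median of −0.39, while 52.9% of all genes were below 0 and 47.1% above. Without HSCR proximal 2 the median was −0.11 with 60 members below 0, without both HSCR replicates 1 it was −0.49, and with the length offset it was −0.33. Ndufa12, a complex I accessory subunit, was at 54.2, 132, 74.5 and 69.98 CPM proximally and 48.2, 77.4, 33.2 and 35.1 CPM distally (−0.83 ± 0.35 SE, unadjusted p = 0.0416, adjusted p = 1.00 by edgeR). Ndufb8 was at 96.8, 149, 85.2 and 113 CPM against 78.1, 77.1, 86.1 and 62.8 CPM (−0.61 ± 0.26 SE), and Ndufa13 had a log2 fold change of −0.55 ± 0.28 SE. In each of these genes the segments overlapped, and no member had segments that did not overlap, against 0.357% of all genes lower and 1.01% higher. Both segment comparisons share libraries with the genotype comparisons above, so the 4 sets of values are not independent.

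**Figure D4:**
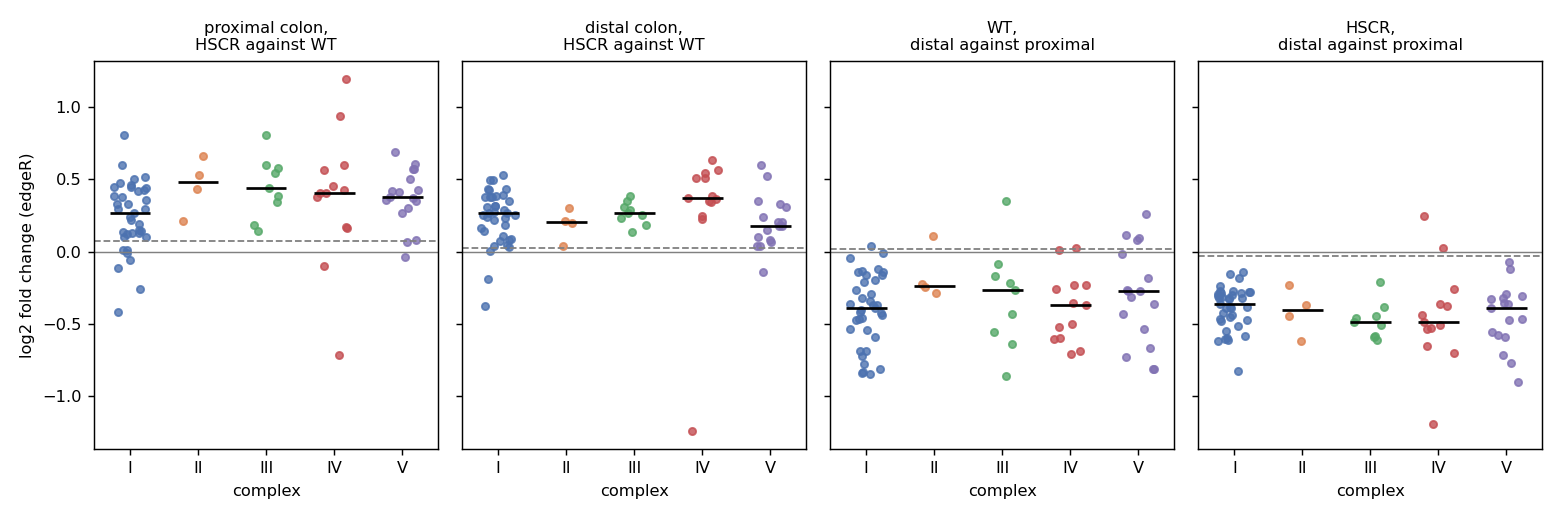
Log2 fold change of each member (points, edgeR) by complex for the 4 comparisons, with the median of each complex (black lines), the median of all genes tested (dashed) and 0 (solid grey). Most points lie above 0 for HSCR against WT and below 0 for distal against proximal.

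Complex by complex, the medians were alike in direction with all libraries in the fit. In the proximal colon they were 0.26, 0.48, 0.44, 0.41 and 0.38 for complexes I to V, but −0.04, 0.12, −0.08, −0.05 and −0.10 without HSCR proximal 2. In the distal colon they were 0.26, 0.20, 0.27, 0.37 and 0.18. In WT, distal versus proximal, they were −0.39, −0.24, −0.27, −0.37 and −0.27, and in HSCR −0.36, −0.41, −0.49, −0.49 and −0.39, or −0.14, −0.14, −0.12, −0.03 and −0.05 without HSCR proximal 2. Whether the genotype difference itself differed between segments was tested in 1 model over 16 libraries. No member passed an adjusted p of 0.05 (edgeR quasi-likelihood test, 0% of 18569 genes either way) and 0 had an unadjusted p under 0.05, against 0.576% of genes higher and 0.867% lower. The smallest p was that of Sdha (−0.49 ± 0.36 SE, unadjusted p = 0.200 by edgeR), followed by Uqcrc2 and Ndufa9. All 12 core subunits were below 0 here, with a median of −0.34, but 8 of 12 without HSCR proximal 2, with a median of −0.05, and the median of all members was −0.09, the same as that of all genes, but 0.28 without HSCR proximal 2 and 0.06 with the length offset.

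Within groups, the slope of each gene on the mitochondrial share was fitted per 10 points of share. No member passed (edgeR quasi-likelihood test, 0% of 18569 genes either way), and 0 members had an unadjusted p under 0.05 against 3.19% of genes rising and 3.77% falling with the share. The slope was above 0 for 66 members with a median of 0.11, and below 0 for 14, beside 46.7% and 53.3% of all genes and a median of −0.02. With the length offset 33 members were above 0, with a median of −0.02. The smallest p was that of Ndufb1, a complex I accessory gene, at 0.23 ± 0.12 SE. Among core subunits the median slope was −0.04, with the lowest for Ndufs1 at −0.14 ± 0.12 SE.

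Other mitochondrial and ribosomal lists, fixed by symbol or role, were read in the same fits, and no gene in them passed the adjusted p. Fatty acid oxidation genes, which feed electrons to the chain, had a median log2 fold change of 0.79 in HSCR versus WT proximal colon, with 12 of 12 tested above 0 and 5 under an unadjusted p of 0.05, from 0.40 for Etfb to 1.68 for Acads, beside 55.4% of all genes above 0 and 2.76% higher at that p. Citric acid cycle genes had a median of 0.33 there with 17 of 17 above 0, assembly factors of complex I 0.20 and of complexes II to V 0.26, and the 77 tested genes of the mitochondrial ribosome 0.27. Glycolysis genes were at 0.29 and carriers and pores at 0.36. Regulators of mitochondrial genes were at 0.10. Cytosolic ribosomal protein genes had a median of 0.52 with 78 of 79 above 0. These medians also moved with HSCR proximal 2. Without it fatty acid oxidation genes were at 0.45, with 11 of 12 above 0 and 3 under the unadjusted p, and citric acid cycle genes at 0.24, while 52.1% of all genes were above 0 and 3.94% higher at that p. The cytosolic ribosome was then at 0.05 and the mitochondrial ribosome at −0.09, complex I assembly factors at −0.01 and those of complexes II to V at −0.12. Glycolysis genes were at 0.25, carriers and pores at 0.16 and regulators at 0.01. In WT, distal versus proximal, the cytosolic ribosome was at 0.22, opposite in sign to the members' −0.36, and the mitochondrial ribosome at −0.16 with 3 of 77 lower at an unadjusted p under 0.05, beside 2.18% of all genes. With the mitochondrial share, 78 of 81 cytosolic ribosomal genes had a slope above 0, with a median of 0.25, beside 46.7% of all genes.

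Subunits whose symbols the rule leaves out were read in the same fits. Cox4i1, the main form of a large nuclear subunit of complex IV, was at 461, 472, 505 and 400 CPM in WT distal and 597, 850, 594 and 550 CPM in HSCR distal, with no overlap (log2 fold change 0.52 ± 0.22 SE, unadjusted p = 0.0451, adjusted p = 1.00 by edgeR). In WT proximal it was at 562, 713, 595 and 707 CPM, above all WT distal libraries (−0.50 ± 0.22 SE). Atpif1, which inhibits ATP synthase when it would run backwards, had a log2 fold change of −0.77 ± 0.31 SE in WT, distal versus proximal. Cycs, the mobile carrier cytochrome c, had one of −0.30 ± 0.41 SE, and Ndufab1, which is also the mitochondrial acyl carrier protein, one of −0.54 ± 0.29 SE. Cox4i2 and Ndufa4l2, both isoforms induced by low oxygen in other settings, were low, at means of 6.48 and 10.6 CPM per kb. For HSCR versus WT, Ndufa4l2 had log2 fold changes of −0.95 ± 0.58 SE proximally and −0.32 ± 0.75 SE distally, opposite in sign to the members' medians, and Cox4i2 had 0.62 ± 0.54 SE and 0.65 ± 0.59 SE.

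Isoforms that mark striated muscle and other tissues varied most. Cox6a2, the heart and skeletal muscle partner of Cox6a1 (chr7:127804607-127805559), had 596 counts in HSCR proximal 1, 231 in HSCR distal 2 and 50 in WT distal 1, which are 16.1, 11.2 and 2.09 CPM. It had 4 counts in HSCR proximal 3, 7 in HSCR distal 4 and 0 in the other 11 libraries, where 3 counts would be 0.0716 to 0.280 CPM. These limits cover counting error only. The 3 libraries with most Cox6a2 were those with the most skeletal muscle RNA: the 8 markers summed to 2907, 2162 and 1800 CPM in HSCR proximal 1, HSCR distal 2 and WT distal 1, and to 34.4 to 340 CPM in the others. The part of such tissue in the members' differences was not tested, but without these libraries the medians of the 4 comparisons were 0.47, 0.20, −0.43 and −0.65.

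Cox7a1, the muscle form beside Cox7a2, was at 55.03 CPM in HSCR proximal 2, the library with few smooth muscle and many epithelial transcripts, and at 24.1 CPM in HSCR distal 2. Elsewhere it was between 1.01 and 12.5 CPM. It made up 19.9% of the per-length sum of Cox7a1 and Cox7a2 in HSCR proximal 2 and 1.64% to 13.9% in the others. Cox8b, the striated muscle and brown fat form beside Cox8a, was at 14.9, 1.29, 12.8 and 16.2 CPM in WT proximal and 10.8, 1.06, 1.98 and 11.2 CPM in HSCR proximal. In the distal colon it was at 20.5, 19.3, 5.35 and 3.39 CPM in WT and 0.364, 16.6, 1.32 and 2.61 CPM in HSCR. Cox8b had the largest ratio of highest to lowest library of all members, 56.3, and was the only member below its usual level in HSCR proximal 2, at 0.0990 times the median of the other 15. Cox7a2l, a complex IV relative that helps to tether complex IV to complex III, was highest in replicate 2 of every group. It was at 349 CPM in WT proximal 2, 462 CPM in HSCR proximal 2, 399 CPM in WT distal 2 and 610 CPM in HSCR distal 2. All libraries of the other replicate numbers lay between 162 and 244 CPM, and the cause was not tested.

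**Figure D5:**
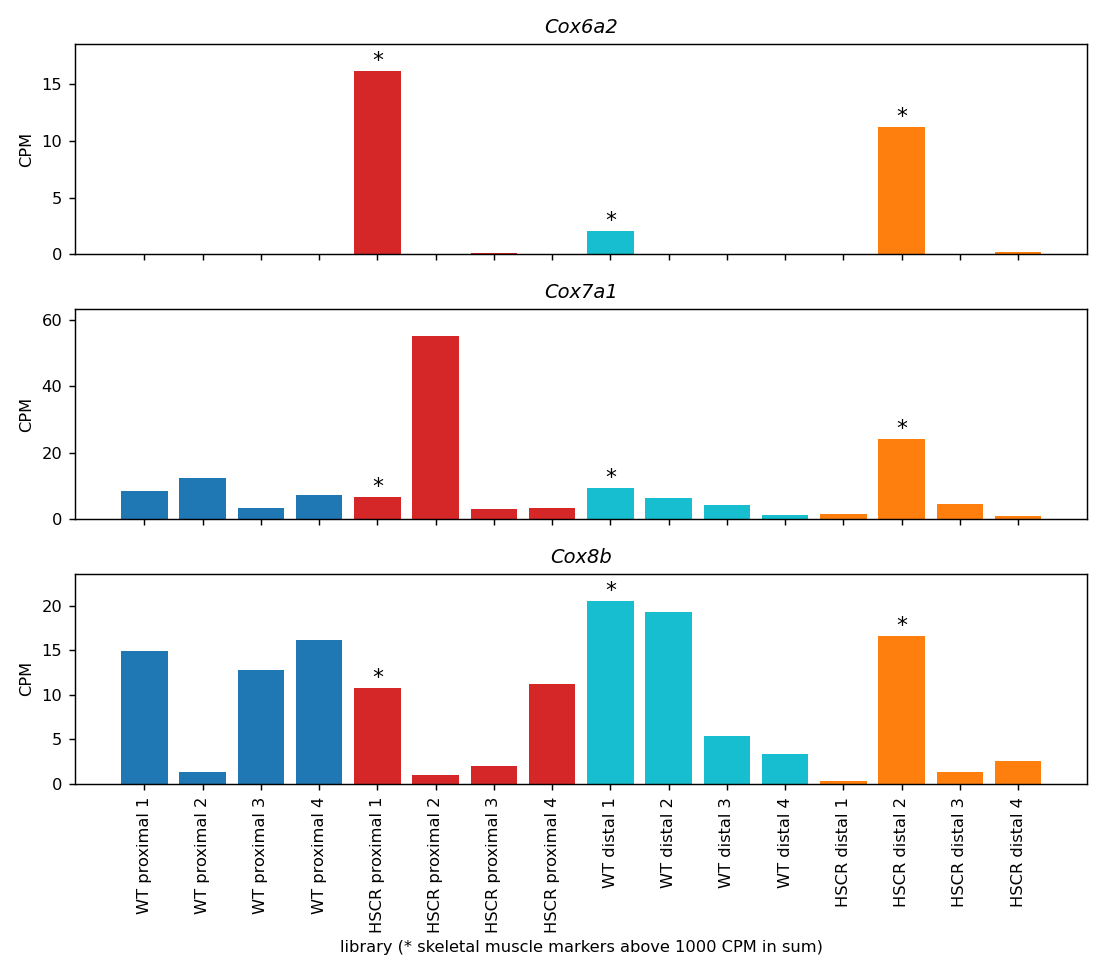
CPM of Cox6a2, Cox7a1 and Cox8b in each of the 16 libraries, coloured by group. Asterisks mark the 3 libraries whose skeletal muscle markers sum to more than 1000 CPM. Cox6a2 is seen in those 3, while Cox7a1 is highest in HSCR proximal 2.

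The 3 genes for the membrane ring of ATP synthase, Atp5g1, Atp5g2 and Atp5g3, encode the same mature peptide, and Atp5g3 was the most abundant per length at 218 CPM per kb against 141 and 34.6. Atp5g1 was at 571 CPM in HSCR proximal 2 and between 58.4 and 214 CPM elsewhere. Cox6b2, the testis form of Cox6b1, was at 5.42 to 34.6 CPM and was highest in the library labelled HSCR distal 1. It made up 1.57% to 8.77% of the per-length sum of Cox6b1 and Cox6b2.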

How the data were processed

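RNA-seq of the LMMP was made from poly-A RNA in 16 libraries. Per the labels and the study's Methods, the authors aligned reads with HISAT2 2.2.1 to build mm39 and featureCounts 2.0.6 gave a value for each gene; the deposited counts are whole numbers without normalization. The deposited FPKM values, and the fold changes and p-values of the authors' own comparisons, were not used. The counting's strand setting is not given in the sources used here.

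Libraries were grouped by title. Members and lists were chosen with earlier results of these data known. Named genes were: in each complex, the 2 highest per length; in each comparison, the 3 with the smallest p; the isoform families; core subunits; Ednrb and subunits the symbols leave out; and the 3 most alike in pattern. 1 member is not reported here by name, but counts and sums include it. The other genes named, such as Atp5c1, were chosen after their values were seen. Genes were tested in edgeR 4.0.16 (R 4.3.3) by its quasi-likelihood test, after filterByExpr and TMM over non-mitochondrial counts, with Benjamini-Hochberg adjustment; the threshold was 0.05. Descriptive log2 values used a pseudocount of 1 CPM. Alternatives used DESeq2 1.42.0, limma 3.58.1 voom, RUVr (the study's correction), other normalizations and filters, a replicate block, a length offset and subsets of libraries. Libraries had 10728446 to 42926041 non-mitochondrial counts; the spread between libraries, with a biological coefficient of variation of 0.695 to 0.740, limited precision more than depth. No 2 libraries were identical. Symbols follow the deposited annotation, and no protein sequences are shown.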

Additional observations from a re-analysis of the deposited data

Results flagged for a closer look

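Libraries far from the others of their group were looked for in 212 groups of 4 values (member sums, the mitochondrial share and the named genes), by the gap to the nearest library over the group's range, above Dixon's 95% critical value. Chance flags about 1 in 20, or 10.6 of 212. That rate holds for independent groups, and these were not: sums and genes that move together were read in the same libraries. In all, 33 were found, 24 of them in HSCR proximal 2. That library held a summed member level of 29353 CPM against 13160 to 14367 CPM in the other 3 of its group. Its complex sums of 7160 CPM (complex I), 1588 CPM (complex II), 3932 CPM (complex III) and 5784 CPM (complex IV) stood apart likewise. In the same library stood apart Atp5g1 at 571 CPM, Atp5j at 402, Cox5a at 225, Cox5b at 393, Cox6b1 at 603, Cox7a1 at 55.03, Cox7a2 at 392, Cox7a2l at 462, Cox7b at 395, Cox8a at 888, Ndufb4 at 143, Sdhc at 406, Sdhd at 497, Uqcr10 at 389 and Uqcrfs1 at 488 CPM, and of the genes outside the rule Cycs at 322, Atpif1 at 199.8, Ndufab1 at 93.9 and, as the lowest of its group, Ndufa4l2 at 5.62 CPM. That library also has the fewest smooth muscle and the most epithelial transcripts, and their part in these values was not tested.

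Outside HSCR proximal 2 the flags were fewer than the chance number of 10.6, so they are listed as a description only. HSCR distal 2 was flagged for Cox7a1 at 24.1, Cox7a2l at 610, Cox8b at 16.6, Uqcrh at 507 and Cox4i1 at 850 CPM. In other libraries the mitochondrial share of HSCR proximal 4 was 20.1% against 5.56% to 6.68% in its group, Cox7a2 was lowest in WT proximal 3 at 166 CPM, Cox4i2 lowest in HSCR proximal 1 at 2.57 CPM, and Ednrb at 112 CPM in the library labelled HSCR distal 1 against 6.62 to 10.5 CPM in its group. Cox6a2, left out by the count minimum, was at 16.1 CPM in HSCR proximal 1, where all 4 WT proximal libraries were at 0, and at 11.2 CPM in HSCR distal 2, where WT distal libraries reached 2.09 CPM.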

How the results depend on the processing

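With edgeR's quasi-likelihood test, DESeq2, limma-voom, RUVr with 1 factor, other normalizations and filters, and with each library left out, 0 members passed the adjusted p in any comparison. At an unadjusted p under 0.05, for HSCR versus WT DESeq2 had 2 members higher proximally and 3 distally. For distal versus proximal it had 13 lower in WT and 2 in HSCR, while limma-voom had 25 lower in WT. The share of all genes at that p was not taken in these fits, so these counts cannot be set against it. RUVr with 4 factors, which leaves 2 residual degrees of freedom per comparison, called 7 members higher in the proximal colon (among them Uqcrc2, Ndufa9 and Atp5c1), which is 8.75% of members against 11.6% of all genes. In the distal colon it called 3 higher (Cox6a1, Cox5b and Atp5mpl), or 3.75% against 4.49%, and 1 lower (Cox8b), or 1.25% against 6.1%. In WT distal versus proximal it called 19 lower, or 23.8% against 9.18%. The cause was not tested. The median log2 fold change in the proximal colon was −0.15 with limma-voom, 0.86 in replicates 1 and 2, −0.16 in replicates 3 and 4 and −0.05 to 0.54 with 1 library left out, with −0.0503 without HSCR proximal 2. Leaving out 1 library gave 0.13 to 0.42 in the distal colon, −0.48 to −0.18 in WT and −0.58 to −0.11 in HSCR. For the interaction, whose main median was −0.09, it was 0.32 with limma-voom, −0.48 in replicates 1 and 2 and −0.28 to 0.28 with 1 library left out. The slope median was 0.07 to 0.16. The mitochondrial share of HSCR, distal minus proximal, was −1.08 points, −2.45 to 2.40 with 1 library left out, reversed without HSCR proximal 4. With 3 against 4 libraries the other shares kept their sign.

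The labels do not say that a replicate number marks a shared animal. Numbers were taken to pair libraries only if the deviations of every same-numbered pair correlated above 0.1, and the lowest pair was at −0.118 for HSCR versus WT proximally and at −0.218 distally, and at 0.0947 between the segments of WT and 0.00151 between those of HSCR, so the replicate block is given only here. Between the segments of WT, the same-numbered pair was the closest for replicates 1, 2 and 3 but not for 4. Between those of HSCR it was the closest for replicates 2 and 4 but not for 1 and 3. Library names share a number across the 4 groups in replicate 1 and in replicate 2, but not in replicates 3 and 4. What that number stands for is not stated. Between the segments of WT the lowest pair was replicate 2. In the other comparisons it was replicate 1, with the libraries labelled HSCR proximal 1 and HSCR distal 1. The rule could fail on those libraries even if other numbers mark shared animals or litters. Whether same-numbered libraries share an animal or litter could thus not be settled, and the main tests take them as separate. With the replicate block 0 members passed, and the medians were 0.26, 0.25, −0.33, −0.38 and −0.04 for the 4 comparisons and the interaction, and 0.14 for the slope.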
